A study of Danio rerio with 6 samples.

Results

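The vehicle-treated livers of the Tg(fabp10a:pt-Beta-catenin) zebrafish line were described on their own, as the baseline transcriptome of a larval liver in which a mutant β-catenin is active in hepatocytes. They comprised the 3 samples titled DMSO, replicates 1 to 3, of the 6 samples in the series. The other 3 samples received GW7647 and were not analysed here, so no treatment comparison was made. All 3 vehicle samples carried the transgene, in which the hepatocyte-restricted *fabp10a* promoter drives a mutant Xenopus β-catenin that resists degradation, and livers without the transgene were not analysed here. The larvae were in 0.1% dimethyl sulfoxide (DMSO), the solvent of the compound, for 2 days from 13 to 15 days post-fertilization (dpf), without food during that time, and were 15 dpf at dissection. Each RNA sample came from a pool of 30 to 40 dissected livers. Per the study's methods, larvae of several clutches were used and each RNA-seq column was an independent sample, while how clutches were divided among the 3 pools is not stated. Each value is from the Tg line as a whole liver and cannot separate fewer cells of a type from less RNA per cell.

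The liver of this line is a model of regeneration from liver progenitor cells (LPCs). Hepatocytes that express the stable β-catenin are injured, and new hepatocytes form by way of LPCs. Per the study, these LPCs arise from surviving hepatocytes, the larger source, as well as from the biliary epithelial cells (BECs). Hepatocytes secrete most plasma proteins and carry out gluconeogenesis, amino acid breakdown and bile acid synthesis, BECs line the bile ducts and express keratins, annexin A4 and the transcription factor Sox9, and LPCs share many BEC genes. Teleosts underwent an extra genome duplication, so many single-copy mammalian genes have a pair of copies, marked a and b, whose levels can differ widely.

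The 3 libraries held 19961881, 22332909 and 20750285 exon-assigned reads, of which 96.7% to 96.8% mapped uniquely. Levels are given as TPM, a unit that scales reads by exon length and sets each library to the same total of transcripts, so a TPM share is a share of transcripts and not of reads. At this depth 3 reads on an exon length of 1 kb corresponded to 0.222 to 0.266 TPM. The TPM of 3 reads is lower for genes with longer exons and higher for those with shorter ones. Of 25281 listed genes, 13430 (53.1%) were at 1 TPM or more in every library, 981 at 100 TPM or more and 148 at 1000 TPM or more, while 3681 had no read in any library. The median over all genes was 1.85 TPM. Coordinates are printed as deposited, with the genome build not given in the sources used here.

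A small set of genes supplied most transcripts. The 10 most abundant genes of a library held 10.4% of TPM in replicate 1, 13.4% in replicate 2 and 10.6% in replicate 3 (11.5% ± 1.66, SD, n = 3), and the 100 most abundant held 45.6%, 49.0% and 45.2%. Reaching 50% of TPM took 125 genes in replicate 1, 106 in replicate 2 and 129 in replicate 3. The libraries shared 26 of their 30 most abundant genes and 94 of their 100 most abundant. Replicate 2 was the most concentrated by the share and gene number measures. These totals include chromosome MT, whose 3 cytochrome c oxidase genes held 3.56%, 5.60% and 3.22% of TPM in replicates 1 to 3. Without chromosome MT the share of the 10 most abundant genes was 9.94% ± 0.760 (SD, n = 3). The order of the libraries without it is not given here.

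The most abundant transcript was *apoa2*, an apolipoprotein of high-density lipoprotein, at 16874, 20696 and 19283 TPM in replicates 1 to 3. *fabp10a*, the liver fatty acid binding protein whose promoter drives the transgene, ranked 6 at 10056, 9370 and 11392 TPM. *bhmt*, which remethylates homocysteine with betaine, ranked 7 at 9091, 9561 and 9113 TPM. The highest library stood 1.23-fold above the lowest for *apoa2*, 1.22-fold for *fabp10a* and 1.05-fold for *bhmt*. Of the other 27 genes in the top 30, 15 encoded cytosolic ribosomal proteins and 4 were mitochondrially encoded. The ribosomal set was led by *rplp0*, the stalk protein, at 7400, 9538 and 7609 TPM. *actb2*, the cytoplasmic β-actin, stood at 6329, 6320 and 6563 TPM, *slc25a5*, an ADP/ATP carrier of the mitochondrial inner membrane, at 6118, 6287 and 6047 TPM, and *tmsb4x*, an actin-monomer binding peptide, at 5419, 7025 and 5697 TPM. The fourth-ranked gene, *si:dkey-151g10.6*, has only a clone-based name in the files, and stood at 12096, 13204 and 12920 TPM on an exon length of 461 bases.

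**Figure D1:**
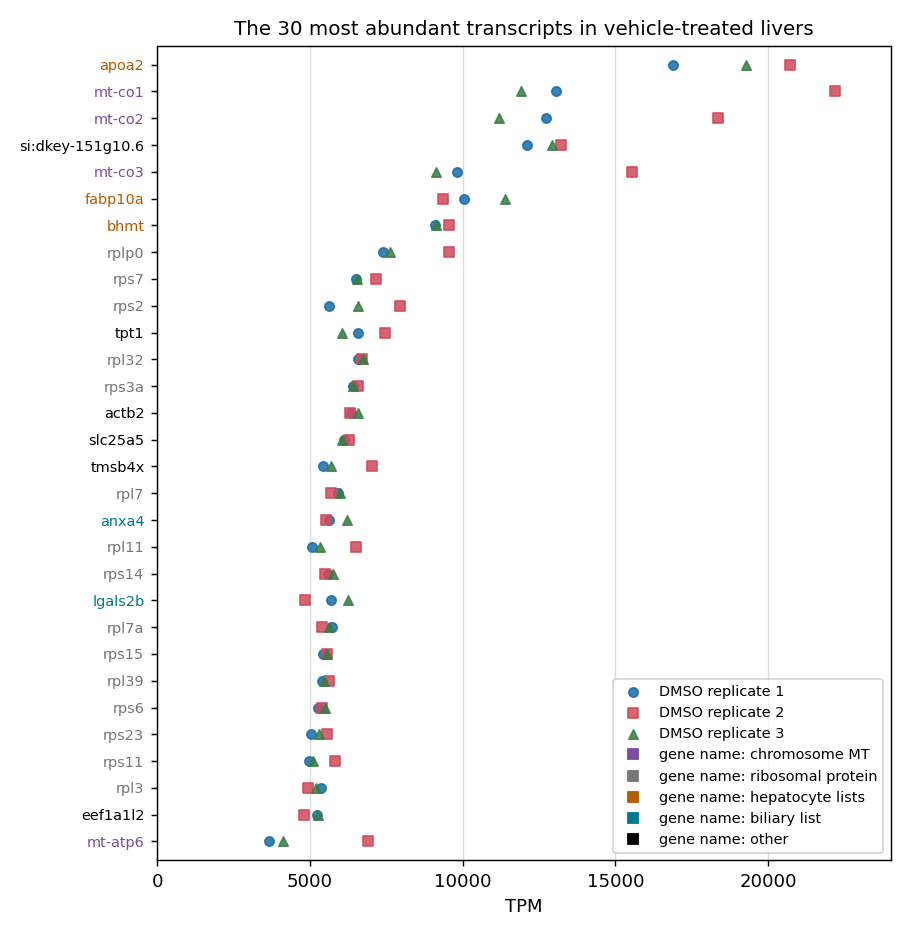
The 30 genes with the highest mean TPM (rows, highest at the top) plotted by TPM (x axis) in each of the 3 vehicle-treated libraries (points), with gene names coloured by class. *apoa2* leads at 16874 to 20696 TPM, and the replicate 2 points of the 4 mitochondrial genes lie to the right of the other libraries.

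The biliary list also had 2 members in the top 30. *anxa4*, a calcium-dependent membrane-binding annexin used as a BEC and LPC marker in zebrafish, ranked 18 at 5628, 5535 and 6223 TPM. *lgals2b*, a galectin, ranked 21 at 5689, 4849 and 6257 TPM. Their levels lay below that of *fabp10a* in every library.

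The order changed when reads were counted without division by exon length. The 15 genes with the most exon reads were led by *eef1a1l2*, translation elongation factor 1 alpha, with 347181, 380669 and 364390 reads, although it ranked 29 by TPM, because the files list 5863 exon bases for it. *gapdh*, a glycolytic enzyme, *hsp90ab1* and *hspa8*, cytosolic chaperones, *eef2b*, an elongation factor, *glud1b*, a glutamate dehydrogenase, and *ucp1*, a mitochondrial uncoupling protein, were in that set with *mt-co1*, *bhmt*, *apoa2*, *actb2*, *mt-co2*, *rplp0* and *mt-co3*. By reads, 50% of a library lay in 255, 215 and 275 genes. Of the 30 leading genes by each measure, 13 were shared.

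The 84 genes named as cytosolic ribosomal proteins, which build both subunits of the ribosome, held 26.04%, 26.96% and 26.22% of TPM (26.4% ± 0.485, SD, n = 3). Of the 84, 71 were at 1000 TPM or more in every library, and their median mean level was 3200 TPM against 1.85 TPM over all genes. They made up 57 of the 100 most abundant genes. By exon reads their share was 14.1% ± 0.797 (SD, n = 3) (by reads, without division by exon length). Their median standard deviation (SD) of log2(TPM + 1) was 0.06. It was 0.16 over the 11056 genes with at least 100 exon reads on average, most of them at far lower levels. Over the 162 of those genes with a mean of 1000 TPM or more, which include many ribosomal protein genes, the median SD was 0.12. *rack1*, a scaffold protein of the small subunit, stood at 4122, 4143 and 4118 TPM.

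Plasma protein transcripts formed the largest of the 25 lists of cell-type and pathway genes that were summed. The 66 members found held 7.94%, 7.12% and 7.37% of TPM (7.48% ± 0.422, SD, n = 3), with 63 at 1 TPM or more in every library and 54 at 100 TPM or more. Their median mean level was 370 TPM. *apoa2* alone supplied 25.3% of the list. *igfbp1a*, which binds insulin-like growth factors, stood at 4360, 4440 and 4337 TPM. Further lipid carriers followed, *apoc1* at 3315, 2724 and 3057 TPM and *apoeb* at 2455, 2956 and 3076 TPM. *rbp4*, the plasma retinol carrier, stood at 3664, 2122 and 2524 TPM and *serpina1*, the alpha-1-antitrypsin protease inhibitor, at 3207, 2153 and 2830 TPM, in both cases with replicate 1 highest and replicate 2 lowest.

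Other secreted proteins covered a wide range of levels. Of the 3 fibrinogen chains, *fgg* was highest at 2650, 2670 and 2481 TPM, followed by *fga* at 1763, 1494 and 1598 TPM and *fgb* at 1442, 1220 and 1246 TPM. Their products form 1 clotting protein. Complement was represented by *c3a.1*, a copy of the central component C3, at 2548, 1299 and 1632 TPM, and by *cfb*, factor B of the alternative pathway, at 2304, 1619 and 1769 TPM. *gc*, the vitamin D binding protein, was far lower at 188, 169 and 203 TPM, and *ttr*, the thyroid hormone carrier transthyretin, stood at 163, 158 and 162 TPM. Only *apobb.2* and *mbl2* were below 1 TPM in every library.

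Several of the abundant apolipoprotein genes were neighbours. On chromosome 16, the interval from the start of *apoa4b.1* (23913943) to the end of *apoa2* (23980354), 66412 bases long, also holds *apoeb* (23960744 to 23963461) and *apoc1* (23972126 to 23973721). The 9 listed genes that overlap this interval supplied 2.37%, 2.71% and 2.65% of TPM. The level within it was uneven, since *apoc4*, which lies between *apoc1* and *apoa2*, stood at 5.98, 4.86 and 4.01 TPM.

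The 44 hepatocyte enzyme genes found held 4.18%, 3.77% and 4.14% of TPM (4.03% ± 0.226, SD, n = 3), and 41 were at 1 TPM or more in every library. After *fabp10a* and *bhmt* came *ces2*, a carboxylesterase, at 4998, 3751 and 4244 TPM. Of the enzymes of amino acid breakdown on the list, *hpda*, a tyrosine-pathway dioxygenase, stood at 1998, 1354 and 1685 TPM, *agxtb*, an aminotransferase that handles glyoxylate, at 1271, 1388 and 1496 TPM, and *pah*, phenylalanine hydroxylase, at 809, 707 and 623 TPM, while *fah*, *kmo* and *hgd* stood at 279, 231 and 291 TPM, at 106, 86.9 and 125 TPM and at 99.5, 83.0 and 78.0 TPM. *pck1*, which commits carbon to gluconeogenesis, stood at 743, 1119 and 1298 TPM. *tat*, tyrosine aminotransferase, had the opposite order, at 965, 725 and 513 TPM. *cyp7a1*, the rate-limiting enzyme of the classical bile acid pathway, was low by comparison at 74.4, 52.5 and 88.6 TPM. *cps1*, the carbamoyl phosphate synthetase that feeds the urea cycle in mammals, was below the level of 3 reads in each library, at 0.0177, 0 and 0.0169 TPM. *adh8a*, an alcohol dehydrogenase, was also below 1 TPM in every library.

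All 14 hepatocyte transcription factors were at 1 TPM or more, although together they held only 0.0920%, 0.0794% and 0.0959% of TPM. *cebpb*, a stress-responsive factor, led at 329, 322 and 331 TPM, followed by *foxa3* at 109.4, 76.03 and 101.6 TPM and *prox1a* at 92.3, 61.6 and 93.2 TPM. *hnf4a*, the nuclear receptor that maintains hepatocyte identity, stood at 49.6, 41.6 and 63.5 TPM. Of the 14, 13 were lowest in replicate 2. Counts of members highest or lowest in a given library, here and below, lack the share of all genes for comparison. They are therefore not read as a trait of the list.

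Transporters of the hepatocyte membranes were present with exceptions. *abcc2*, the canalicular exporter of conjugates, stood at 451, 370 and 484 TPM, *slc27a2a*, a fatty acid transporter, at 395, 281 and 314 TPM, and *slco1d1*, an organic anion uptake carrier, at 297, 204 and 263 TPM. *abcb11b*, a bile salt export pump, stood at 74.8, 52.3 and 97.5 TPM. *slc10a1*, the sodium-dependent bile acid uptake carrier, was at 0, 0 and 0.122 TPM, and *slc22a7b.1* at 0, 0.0773 and 0.530 TPM. Of the 12 members found, 10 were lowest in replicate 2, again without the share of all genes.

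The biliary and progenitor list held 2.21%, 2.14% and 2.29% of TPM (2.22% ± 0.0760, SD, n = 3). Of its 35 members, all found, 34 were at 1 TPM or more in every library, 12 at 100 TPM or more, and 21 had a mean below 50 TPM. Its sum was concentrated, with *anxa4*, *lgals2b*, *krt18a.1* and *krt8* supplying 82.6%. *krt18a.1* and *krt8*, the partner keratins of simple epithelia, stood at 3960, 4239 and 3554 TPM and at 3089, 2899 and 2981 TPM. Simple keratins are also found in other epithelia, and the cell source of these reads was not tested.

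More restricted biliary genes were lower. *epcam*, an epithelial adhesion molecule on BECs and LPCs, stood at 833, 890 and 824 TPM, and *tm4sf4*, a tetraspanin-like membrane protein, at 841, 970 and 1025 TPM. *sox9b*, a transcription factor of BECs and LPCs, stood at 41.8, 29.0 and 33.7 TPM. Notch components were detected, with the ligand *jag1b* at 12.6, 8.47 and 12.6 TPM, the receptor *notch3* at 18.9, 12.5 and 20.2 TPM, and the Hairy-related repressor *her9* at 18.6, 8.30 and 12.9 TPM. All of these regulators were lowest in replicate 2. They were among 21 of the 35 list members that were lowest there, again without the share of all genes. The paralog *sox9a*, also on the list, was lowest in replicate 1, at 2.61, 2.86 and 2.86 TPM. *cftr*, a chloride channel of mammalian bile duct cells, was the only member below 1 TPM, at 0.0184, 0.0461 and 0.0176 TPM.

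The 4 hepatocyte lists together (136 genes) stood at 5.60, 5.17 and 5.12 times the biliary and progenitor list in summed TPM (5.30 ± 0.265, SD, n = 3). Without *apoa2* the ratio was 4.84, 4.20 and 4.28. These ratios depend on which genes were listed and are not cell proportions.

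Transcripts of other liver cells were present at much lower sums. The 25 macrophage genes found summed to 575, 669 and 574 TPM, led by *lgmn*, a lysosomal protease, at 145, 162 and 126 TPM. The more restricted *mpeg1.1*, which encodes a pore-forming protein of macrophages, stood at 17.3, 19.4 and 19.9 TPM and *marco*, a scavenger receptor, at 25.4, 24.2 and 28.3 TPM. The 18 endothelial genes summed to 125, 123 and 114 TPM, led by *kdrl*, a receptor for vascular endothelial growth factor, at 29.8, 25.3 and 27.9 TPM. *stab2*, *vwf* and *plvapa* were below 1 TPM in every library.

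Among the 23 stellate and contractile genes, which summed to 420, 313 and 285 TPM, *steap4*, a metalloreductase, supplied 49.1% and was at 266, 119 and 114 TPM. The higher sum of replicate 1 lay with *steap4*. Of the 22 members with reads, 13 were lowest in replicate 1 and 4 were highest there, again without the share of all genes. *hand2*, a transcription factor that marks zebrafish stellate cells, stood at 26.5, 26.6 and 15.9 TPM, *lrata*, which esterifies retinol for storage, at 20.8, 22.5 and 22.6 TPM, and *colec11*, a collectin, at 25.5, 25.6 and 27.3 TPM. The fibrillar collagen genes were low in these pools, with *col1a1b* at 6.16, 8.11 and 9.92 TPM and *col1a1a* at 1.65, 4.90 and 5.31 TPM.

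Blood cells contributed little. Erythroid transcripts summed to 532, 724 and 629 TPM and were led by the embryonic globins *hbbe1.1* (249, 333 and 292 TPM), *hbae3* (146, 209 and 173 TPM) and *hbbe2* (108, 139 and 125 TPM), while *hbba2*, an adult globin gene, had no read in any library. The 15 lymphoid genes found summed to 6.58, 7.81 and 5.29 TPM, with 13 below 1 TPM in every library. The neutrophil list summed to 122, 90.4 and 64.1 TPM. Its excess in replicate 1 lay with *il1b*, a cytokine that many cell types produce, at 44.6, 1.48 and 1.14 TPM, whereas the granule genes *lyz* (2.64, 6.13 and 4.49 TPM) and *mpx* (4.98, 3.10 and 2.91 TPM) did not follow it together.

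Transcripts of tissues next to the liver differed between pools. The 28 exocrine pancreas genes found summed to 53.03, 206 and 27.9 TPM, a 7.38-fold range, and 24 of the 27 with reads were highest in replicate 2. The trypsinogen genes *prss1* and *prss59.2* stood at 10.5, 39.99 and 10.2 TPM and at 7.05, 51.1 and 0.577 TPM. *ptf1a*, a pancreatic transcription factor, had no read in any library. Skeletal muscle genes summed to 10.9, 48.5 and 11.9 TPM, with 16 of the 21 with reads highest in replicate 2, led by *mylpfa*, a fast myosin light chain, at 0.869, 15.0 and 1.27 TPM. Even in replicate 2 the pancreas and muscle lists were 0.0206% and 0.00485% of TPM.

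The remaining neighbouring-tissue lists rested on few genes. The intestine list summed to 187, 141 and 220 TPM, of which *anpepb*, an aminopeptidase, supplied 42.7%, while *vil1*, villin of the brush border, was at 0.198, 0.165 and 0.340 TPM and the caudal-type factor *cdx1b* at 0.0329, 0.0275 and 0.0157 TPM. The epidermis list summed to 806, 1129 and 681 TPM, of which *icn*, an S100-type calcium-binding protein, supplied 77.6%, while *tp63*, which marks basal epidermis, was at 1.203, 0.732 and 0.813 TPM. The pancreatic hormone gene *gcga* was at 14.4, 0.606 and 0.584 TPM, high in replicate 1 only, with *ins* at 0.183, 0 and 0 TPM. The endocrine pancreas, kidney tubule, swim bladder, nervous tissue and thrombocyte lists each summed to less than 100 TPM in every library.

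**Figure D2:**
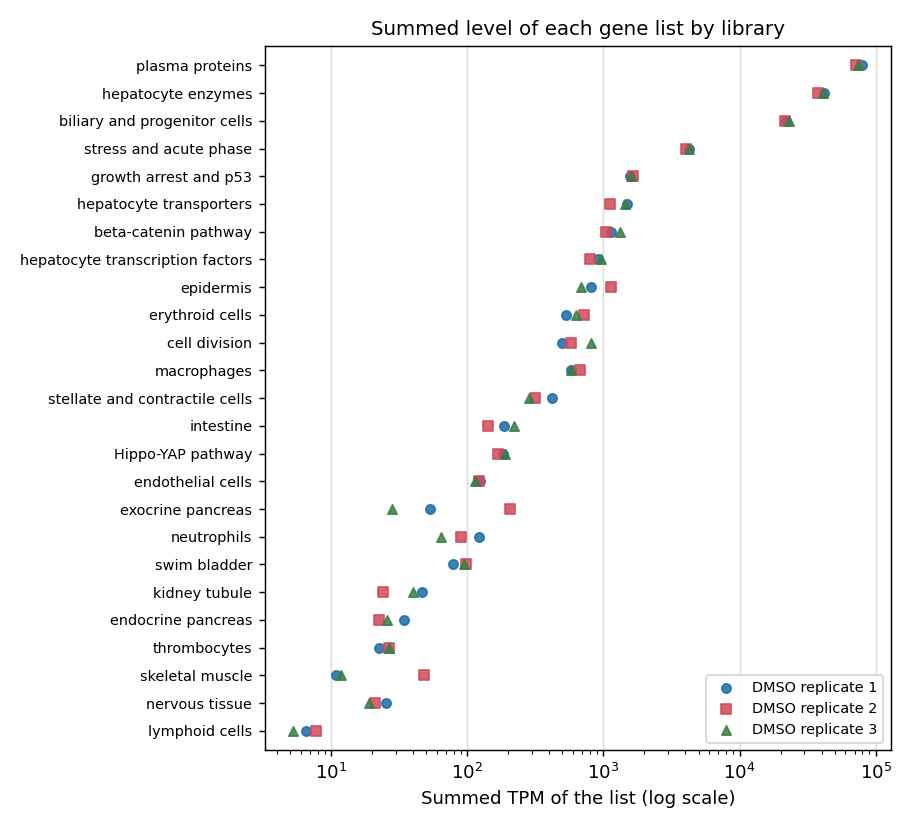
Summed TPM (x axis, log scale) of each of the 25 gene lists (rows) in each vehicle-treated library (points). Plasma proteins, hepatocyte enzymes and biliary genes lie above 20000 TPM with the points close together, whereas exocrine pancreas runs from 27.9 to 206 TPM and skeletal muscle from 10.9 to 48.5 TPM, with replicate 2 highest in both.

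Genes of the pathways that the line engages were also quantified. Zebrafish *ctnnb1* and *ctnnb2*, which encode β-catenin, stood at 149, 134 and 177 TPM and at 87.8, 84.7 and 113 TPM. The Xenopus transgene has no row of its own, and whether any of its reads were assigned to the zebrafish genes was not tested. Among β-catenin target and feedback genes, *wif1*, a secreted Wnt inhibitor, stood at 202, 215 and 268 TPM, *mycb* at 166, 138 and 217 TPM, *axin2* at 27.5, 18.04 and 30.7 TPM and *lef1* at 13.5, 10.2 and 17.0 TPM. Of the 22 members found, 21 were at 1 TPM or more in every library, and 14 were highest in replicate 3. The share of all genes highest in replicate 3 is not given here. Livers without the transgene were not analysed here, so these values do not show whether the pathway was raised.

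The p53 and growth arrest list summed to 1556, 1651 and 1599 TPM and was led by *ccng1*, a cyclin G under p53 control, at 767, 918 and 711 TPM. *cdkn1a*, the p21 cell cycle inhibitor, stood at 27.9, 24.2 and 53.4 TPM, while *cdkn2a/b* was at 0, 0.934 and 0 TPM. In the Hippo pathway, the coactivators *yap1* and *wwtr1* stood at 44.8, 34.2 and 39.6 TPM and at 14.3, 13.5 and 16.1 TPM. Of the YAP target genes, *ccn2a* was at 22.7, 34.97 and 31.9 TPM and *ccn1* at 4.22, 5.71 and 8.81 TPM, both lowest in replicate 1, and *ccn2b* had no read.

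*pparaa* and *pparab*, the copies of the fatty acid-sensing receptor PPARα, stood at 12.2, 8.71 and 11.7 TPM and at 3.51, 2.60 and 2.61 TPM. *cpt1aa* and *cpt1ab*, which admit long-chain fatty acids to the mitochondrion, stood at 45.9, 45.5 and 53.5 TPM and at 27.4, 29.9 and 25.8 TPM. In the mevalonate pathway of sterol synthesis, *hmgcs1* stood at 13.8, 11.04 and 15.6 TPM and *hmgcra* at 17.1, 13.5 and 20.1 TPM.

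Paralog dominance was examined in 63 families with at least 2 members found. In 24 families, 1 member held 90% or more of the family's mean TPM, and in 11 of these 99% or more. In 26 families the leading member held between 60% and 90%, and in 13 less than 60%. The median share of the leading member was 81.7%. The leader was the same gene in all 3 libraries in 60 families.

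Near-exclusive use of 1 copy occurred among both hepatocyte and biliary genes. *fabp10a*, *rbp4*, *hpda*, *ccn2a* and *eef1a1l2* each held close to all of their family's TPM, and *krt18a.1*, *hsp90ab1* and *fth1a* 98.9%, 99.2% and 99.5%. *sox9b* held 92.6%, with *sox9a* at 2.61, 2.86 and 2.86 TPM. *abcb11b* held 97.1% of the bile salt export pump pair. *apoeb* held 99.9%, although only 34.2% of its reads mapped uniquely, and the share from uniquely mapped reads was also 99.9%. *apobb.1* held 86.5% of the apolipoprotein B family by all reads but 60.7% by uniquely mapped reads, since 24.1% of its reads mapped uniquely, so its level is uncertain.

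Other pairs were shared. *ctnnb1* held 61.0% to 62.9% of the summed TPM of the zebrafish β-catenin genes, a narrow range across the 3 libraries. The Xenopus transgene has no row of its own, so this is not a share of all β-catenin transcripts. *yap1* held 71.1% to 75.8% of its total with *wwtr1*, *pparaa* 77.0% to 81.7% of PPARα, *cpt1aa* 59.7% to 67.0% of its family and *actb2* 78.3% to 81.8% of β-actin. *serpina1* and *serpina1l* were split 57.7% to 42.3% in replicate 1 and 50.6% to 49.4% in replicate 2, with 81.7% and 81.2% of their reads mapping uniquely. *atf4b* and *atf4a*, which encode a transcription factor of the integrated stress response, were nearly equal, at 51.9%, 50.02% and 52.6% for *atf4b*.

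In 3 families the leading copy differed by library, and 2 of them are given here. *glulb* and *glula*, glutamine synthetases, stood at 84.0, 101.7 and 85.4 TPM and at 87.0, 58.6 and 98.5 TPM, so that *glulb* exceeded *glula* in replicate 2 only. *tdo2b* and *tdo2a*, which open the tryptophan ring, stood at 380, 310 and 326 TPM and at 279, 212 and 353 TPM, with *tdo2a* above *tdo2b* in replicate 3 only.

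**Figure D3:**
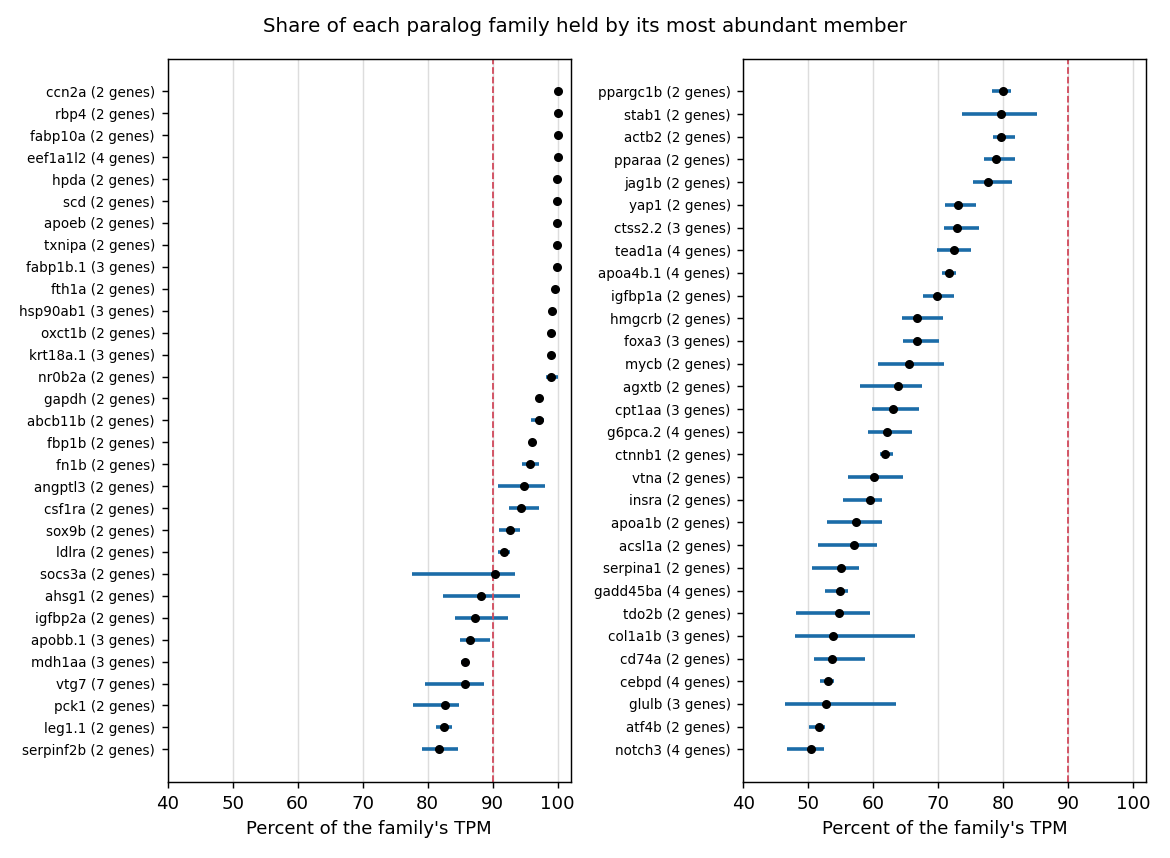
Share of 61 of the 63 paralog families held by its most abundant member (rows, named by that member with the number of genes in the family; x axis, percent of the family's TPM). Points are the share of the mean TPM, lines run from the lowest to the highest of the 3 libraries, and the dashed line marks 90%, which 23 of the plotted families reach.

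Sequence similarity limited some levels beyond these families. Among the 300 most abundant nuclear genes, the 10 with the smallest uniquely mapped share ranged from 0.0397% for *wu:fi09b08* to 44.9% for *rpl9_2*, and included *chac1* (17.2%), *rpl26* (21.1%), *apoeb* (34.2%) and *apoa4b.1* (41.3%). The levels of these genes depend on how shared reads were distributed. For *socs3b*, only 6.75% of reads mapped uniquely, while all reads of *socs3a* did.

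The 13 protein-coding genes of chromosome MT, which encode core subunits of the respiratory chain, held 5.18%, 8.40% and 4.80% of TPM (6.13% ± 1.98, SD, n = 3). By exon reads the share was 2.92%, 5.14% and 2.72% (3.59% ± 1.35, SD, n = 3). Without replicate 2 the mean TPM share was 4.99%. The tables used here list no mitochondrial ribosomal or transfer RNA gene, and the libraries were selected for poly(A) RNA, so these are shares of polyadenylated protein-coding transcripts.

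All 13 genes were highest in replicate 2, by a ratio to the mean of the other libraries that ran from 1.53 to 1.84 with a median of 1.73. The order of the genes was nearly the same in each library. The 3 cytochrome c oxidase genes of complex IV supplied 67.4% of the mitochondrial TPM, with *mt-co1* at 13042, 22174 and 11902 TPM, *mt-co2* at 12741, 18348 and 11182 TPM and *mt-co3* at 9830, 15527 and 9126 TPM. The 7 complex I genes together were at 8536, 14583 and 7955 TPM. *mt-cyb*, of complex III, stood at 3622, 5823 and 3304 TPM. Of the ATP synthase genes, *mt-atp6* stood at 3652, 6900 and 4127 TPM and *mt-atp8* was the lowest of the 13 at 417, 639 and 385 TPM. Their listed intervals, 9052 to 9735 and 8894 to 9058, share 7 bases. The listed exon length is 684 bases for *mt-atp6* and only 165 for *mt-atp8*. How so short a length affects the count was not tested, so the gap may not be one of RNA level.

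*mt-nd5* and *mt-nd6* had near-equal levels, at 923, 1589 and 835 TPM and at 936, 1608 and 842 TPM, although they lie on opposite strands, at 12897 to 14717 and 14714 to 15232, with 4 bases in common. Whether the counting used strand is not given in the sources used here, so reads from the 2 strands cannot be told apart at these genes.

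A set of 93 nuclear genes named as subunits of complexes I, III, IV and V, chosen after the mitochondrial values were seen, held 2.39%, 2.60% and 2.64% of TPM, and 2.52%, 2.84% and 2.78% with chromosome MT left out of the total. The highest library was therefore replicate 3 by the one total and replicate 2 by the other. By TPM with chromosome MT in the total, 31 of the 93 were highest in replicate 2 and 51 in replicate 3. The share of all genes and the counts with chromosome MT left out are not given here. Replicate 2 also held the highest pancreas and muscle sums given above, and their part in the mitochondrial share was not tested.

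**Figure D4:**
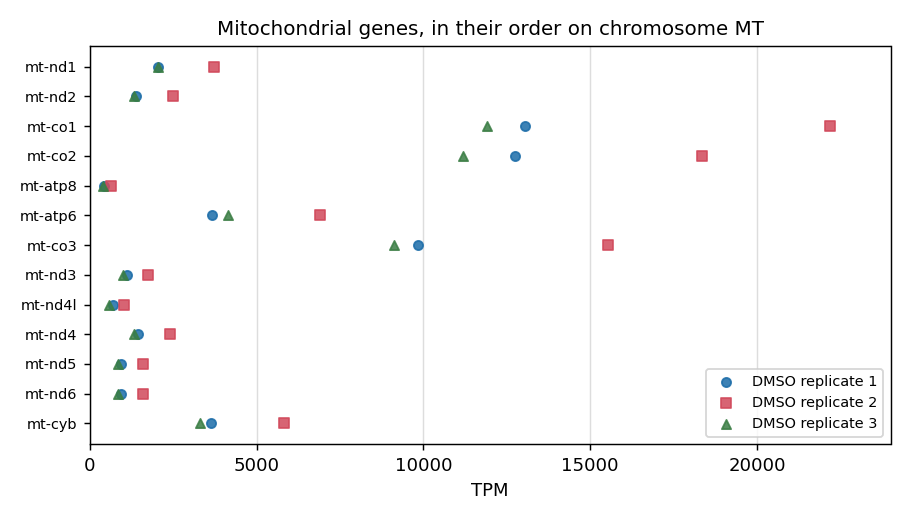
TPM (x axis) of the 13 protein-coding genes of chromosome MT (rows, in chromosomal order) in each vehicle-treated library (points). The replicate 2 point is the highest for every gene, and *mt-co1*, *mt-co2* and *mt-co3* lie above the other 10 genes in all 3 libraries.

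Since TPM sums to a fixed total, a larger mitochondrial share leaves less for other genes. With chromosome MT left out of the total, plasma proteins were at 8.38%, 7.77% and 7.74%, so that replicate 2 no longer stood below replicate 3, and the biliary list was at 2.33%, 2.34% and 2.41%. Hepatocyte transcription factors were at 0.0971%, 0.0866% and 0.101% and transporters at 0.157%, 0.122% and 0.152%, and replicate 2 remained the lowest for both.

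Reads in introns of listed genes made up 3.67% of gene reads in replicate 1, 3.39% in replicate 2 and 3.73% in replicate 3 (3.60% ± 0.183, SD, n = 3). By uniquely mapped reads the share was 2.97%. The reads were concentrated in few genes, since the 12 genes with the most held 22.2% of all intron reads and the top 100 held 41.4%. Among the 5198 genes with at least 500 gene reads in every library, the median intron share was 1.53%, 1631 genes were under 1% in every library, and 34 were at 90% or more in every library.

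The gene with the most intron reads was *scrn2* on chromosome 20 (14632492 to 14680917), with 25779, 34167 and 29017 intron reads against 153, 116 and 138 exon reads. Next was *rida* on chromosome 19 (32822269 to 32884513), with 25554, 32721 and 26491 intron reads, whose interval overlaps that of *rpl30*, an abundant ribosomal protein gene on the same strand at a mean of 3818 TPM. Of the 12 genes with the most intron reads, 4 overlapped another listed gene. For the other 8, including *scrn2*, no listed gene overlapped, and the source of the reads was not tested. *mt-co1*, listed with 1 exon, was also among the 12, as 3.97%, 3.86% and 3.90% of its reads were assigned to the gene but not to its exon, so the column is not a pure measure of unspliced RNA.

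The 10 genes with the highest intron shares were nearly all clone-named models. Of the 10, 9 had no exon read in any library and 9 overlapped another listed gene. An example is *CABZ01092745.1* on chromosome 13 (52071971 to 52105015), with 1845, 1931 and 1945 intron reads and no exon read, which overlaps *tmem254* on the other strand at a mean of 87.5 TPM. By chromosome, the intron share was highest on chromosome 4, at 10.2%, 9.96% and 9.66%, and lowest on chromosome 1, at 1.73%, 1.57% and 1.86%. Chromosome 4 held 7.25% of all intron reads and 2.62% of all gene reads.

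The 3 libraries were alike over most genes. Spearman's rho across 25281 genes was 0.978 between replicates 1 and 2, 0.978 between replicates 1 and 3, and 0.980 between replicates 2 and 3, a description across genes, which are not independent replicates. The biological coefficient of variation (BCV), the relative spread beyond counting error that edgeR fits across genes, was 0.152 over 15238 genes. Among the 11056 genes with at least 100 exon reads on average, the median SD of log2(TPM + 1) was 0.16, the 95th percentile was 0.38 and 39 genes were above 1. The median SD was 0.17 for genes at 1 to 10 TPM and 0.12 for those at 1000 TPM or more. The 95th percentile was 0.38 and 0.48. The 1 added before the logarithm narrows the SD of low genes more than that of high genes. The SDs of the groups are therefore not on the same scale. The top group held only 162 genes, so few genes set its 95th percentile. Its wide members included mitochondrial genes that were highest in replicate 2, such as *mt-co1* (SD 0.48) and *mt-nd1* (0.50). *c3a.1*, a nuclear gene, was also wide (0.49). The percentile without chromosome MT is not given here. Replicate 2 was the farthest from the median of the 3 libraries for 4988 genes, replicate 1 for 3059 and replicate 3 for 3009. These counts used TPM with chromosome MT in the total, of which it held 5.18%, 8.40% and 4.80% in replicates 1 to 3. The counts with it left out are not given here.

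At least 2-fold above both other libraries were 49 genes in replicate 1, 12 in replicate 2 and 14 in replicate 3. At or below 50% of both others were 14 genes in replicate 1, 29 in replicate 2 and 10 in replicate 3.

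Of the 20 genes with the widest spread, 17 were highest in replicate 1 and the other 3 in replicate 2. *saa*, an acute-phase protein, had the widest spread at 130, 5.89 and 4.097 TPM. Also in this set were *cxcl8a*, a chemokine for neutrophils, at 118, 8.88 and 6.62 TPM and *csf3b*, a granulocyte growth factor, at 25.2, 0.573 and 0.984 TPM. *ptgs2a*, a cyclooxygenase, stood at 21.8, 0.589 and 0.317 TPM and *acod1*, which makes itaconate, at 63.9, 9.10 and 10.4 TPM. The set also held *gcga*, given above, and *ggt1a*, a gamma-glutamyltransferase, at 48.5, 7.46 and 6.10 TPM. Among abundant genes, *lect2l*, a secreted leukocyte chemotaxin, stood at 1201, 227 and 130 TPM, and *itln3*, an intelectin lectin, at 848, 131 and 84.7 TPM. In each of these 9 genes replicates 2 and 3 lay within 2-fold of each other and replicate 1 stood at least 5-fold above both. The 9 were picked from the 17 genes highest in replicate 1, which were themselves selected for wide spread. Among the 17, *si:ch211-9d9.1* and *si:ch211-113d11.8* broke this pattern, with replicate 2 more than 2-fold above replicate 3. The rest of the 17 kept to it.

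Acute-phase genes did not share 1 pattern. The stress and acute phase list as a whole summed to 4267, 4061 and 4229 TPM, led by *txn*, thioredoxin. *hamp*, the iron hormone hepcidin, stood at 615, 494 and 279 TPM, *crp3*, a pentraxin, at 362, 476 and 399 TPM, and *stat3*, a cytokine-activated transcription factor, at 25.7, 18.4 and 20.6 TPM. The macrophage sum was 575 TPM in replicate 1 against 669 and 574 TPM, and *mpx* and *lyz* are given above. The part of leukocyte number in the replicate 1 values was not tested.

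Of the 29 genes at or below 50% of both other libraries in replicate 2, 4 are given as examples, chosen after their values were seen. *apoba*, an apolipoprotein B gene, stood at 78.8, 25.0 and 71.1 TPM, *fabp2*, a fatty acid binding protein of the intestine, at 87.3, 31.0 and 81.7 TPM, *cyp2ad2*, a cytochrome P450, at 224, 58.7 and 182 TPM, and *sult1st6*, a sulfotransferase, at 48.1, 20.2 and 42.4 TPM. Replicates 1 and 3 were close to each other for all 4 genes.

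Some genes were highest in replicate 3. *socs3a*, a feedback inhibitor of cytokine signalling, stood at 101.8, 207 and 433 TPM. Named after their values were seen, *fosab*, a subunit of the AP-1 transcription factor, was at 65.2, 172 and 422 TPM, *ier2b* at 18.6, 48.8 and 120 TPM, *junba* at 46.3, 65.8 and 150 TPM and *fkbp5*, a glucocorticoid-induced co-chaperone, at 61.5, 123 and 239 TPM. In these 5 genes the 3 libraries fell in the same order, with replicate 1 lowest.

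The cell division list summed to 494, 575 and 810 TPM, and 18 of its 23 members found were highest in replicate 3. Here too the share of all genes highest in that library is not given. *pcna*, the sliding clamp of DNA replication, supplied 40.8% of the sum at 201, 243 and 322 TPM. All 6 genes of the MCM helicase, *mcm2* to *mcm7*, were highest in replicate 3, for example *mcm4* at 35.6, 29.0 and 62.3 TPM and *mcm5* at 31.0, 25.4 and 52.9 TPM. The mitotic kinase genes *cdk1* and *plk1* stood at 23.5, 39.9 and 38.1 TPM and at 13.1, 19.6 and 19.2 TPM, and both were lowest in replicate 1.

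**Figure D5:**
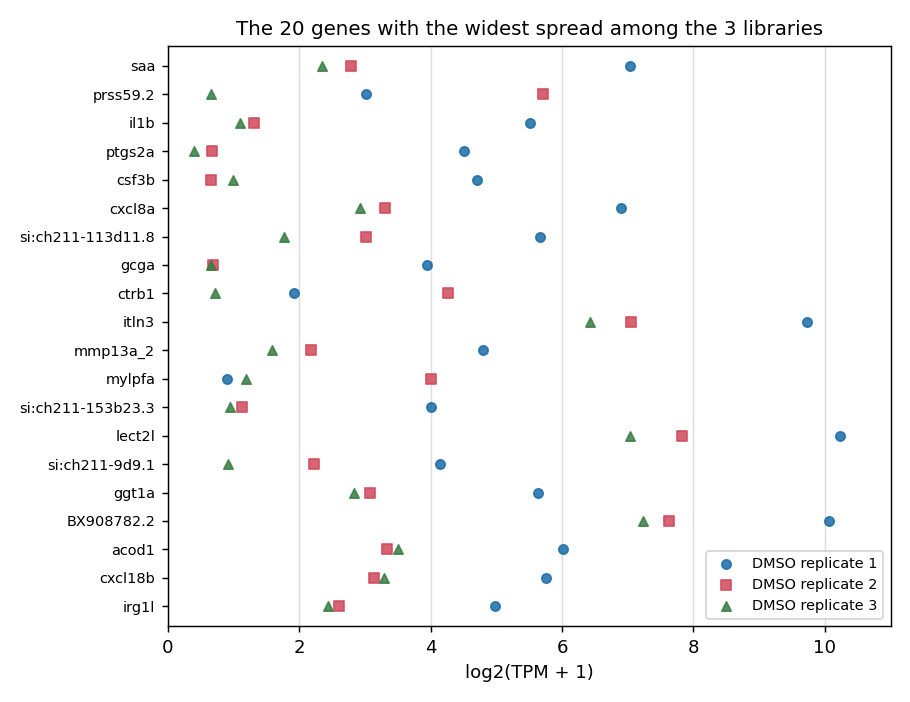
The 20 genes with the largest SD of log2(TPM + 1) among genes with at least 100 exon reads on average (rows, widest at the top), plotted by log2(TPM + 1) (x axis) in each vehicle-treated library (points). Replicate 1 lies far to the right for 17 genes, and replicate 2 for *prss59.2*, *ctrb1* and *mylpfa*.

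At the other end, the 10 narrowest genes had SDs of log2(TPM + 1) below 0.01. They were picked as the smallest among 11056 genes, and their SDs were not compared with counting error. *mapk6*, for example, rested on 910, 1090 and 951 exon reads. The small SDs therefore do not show that these genes are invariant. *mapk6*, an atypical kinase, stood at 12.3 TPM in each library, *wdr91*, an endosomal protein, at 11.5 TPM in each, and *march5l* at 44.4, 44.3 and 44.1 TPM. *rack1* was the only one of the 10 above 1000 TPM. Of the genes often used for normalization, *eef1a1l2* stood at 5246, 4801 and 5257 TPM, with an SD of log2(TPM + 1) of 0.07. *gapdh* stood at 3670, 4359 and 3533 TPM, with an SD of 0.16. That SD was close to the median over the 11056 genes, and above the median of 0.12 over those at 1000 TPM or more.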

How the data were processed

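Gene tables of the 3 DMSO libraries were used, and those of the 3 GW7647 libraries were not. Per the labels and the study's methods, poly(A) RNA of dissected livers was sequenced as paired reads, and CLC Genomics Workbench made the tables, with version, genome build and strand setting not given in the sources used here. The authors deposited, per gene, counts of exon, intron, exon-exon and gene reads (total and unique), RPKM and TPM, and fractions of unique and intron reads. RPKM was used only to derive the mapped total, of which 6.03% to 6.72% lay outside listed genes. The deposited fraction columns were not used, since shares were computed from the counts. Libraries held 19961881 to 22332909 exon reads.

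Shares are percent of summed TPM or reads per library, as mean ± SD over 3 libraries. With 1 group, no test was made. Alternatives were other units, thresholds, normalizations and filters, uniquely mapped reads, chromosome MT left out, and each library left out in turn. List members and families (676 entries, 621 found by symbol, 26 through the gene name table, 29 not analysed here) were chosen with earlier results of these data known. Spread is the SD of log2(TPM + 1), over genes with a mean of at least 100 exon reads. Named genes were the 30 highest by TPM, the 15 with most reads, list and family members, genes measured by qRT-PCR in the study, chromosome MT, the 20 widest and 10 narrowest, the 10 with the highest intron share among genes with 500 gene reads, and the 10 least unique of the 300 most abundant nuclear genes. Genes outside this rule are said to be chosen after their values were seen, except *apoc4*, *scrn2*, *rida*, *rpl30* and *tmem254*. These were also outside it, and were named for their position, intron reads or overlap. The BCV came from edgeR 4.0.16 (R 4.3.3; intercept only, TMM scaling, filterByExpr), tested on simulated data, and all else from Python 3.11.15 with pandas 2.3.3. Some genes that the rule names are not reported here.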

Additional observations from a re-analysis of the deposited data

How the results depend on the processing

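No paired analysis was possible because only 1 group was described. Under 62 of 76 alternatives a value moved by less than its spread, or a count by less than 1.5 times. The spread was the SD over the 3 libraries for shares. For the BCV it was the SD of the values with each library left out. For the rank correlation it was the SD over the 3 pairs of libraries. Some of the 62 were fixed in advance. The mean of a share over 3 libraries cannot move by a full SD when 1 is left out. Restriction to protein-coding genes of chromosome MT kept the same genes, and dropping the minimum TPM kept the same families. Leaving out a library returns 1 of the 3 pairwise correlations, and leaving out replicate 3 returns the lowest itself. By exon reads in place of TPM, 248 genes rather than 120 (mean of the 3 libraries) were needed to reach 50% of the total, and the plasma protein, biliary and ribosomal protein shares were 8.18%, 1.95% and 14.1%; division by exon length sets these differences by construction. Without chromosome MT those 3 shares were 7.96%, 2.36% and 28.1%. The intron share was 2.97% by uniquely mapped reads and 2.41% as the median of genes with at least 100 gene reads. The lowest rank correlation of 0.978 was 0.981 over genes at 1 TPM or more, and Pearson's r of log2(TPM + 1) and log2(TPM + 0.1) was 0.992 and 0.987. Leaving out each library in turn gave a BCV of 0.138 to 0.165, a lowest rank correlation of 0.978 to 0.980, a mitochondrial TPM share of 4.99% to 6.79%, and 23 or 24 families with a dominant paralog. The family of *socs3a*, whose share was 90.3%, left that count without replicate 2. The cause of the other changes was not tested. Each SD is the spread over 3 libraries, whereas detection limits cover counting error only. The level of 3 reads was about 0.25 TPM for an exon length of 1 kb, and lower or higher for longer or shorter exons.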
